A study of Homo sapiens with 6 samples.

Results

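The histone genes of HK-2 cells, an established line of human kidney proximal tubule epithelium, were compared between cells given the growth factor GDF5 and untreated control cells. Members were taken by gene symbol: 73 of the 34157 genes in the table carried a symbol of the H1, H2A, H2B, H3 or H4 families and were not pseudogenes. Of these, 62 were replication-dependent genes, which lie mostly in clusters on chromosomes 6 and 1, and 11 were replacement variants. RNA sequencing covered 3 libraries of wild-type HK-2 cells with 100 ng/ml GDF5 for 48 hours and 3 libraries of wild-type HK-2 cells without it. Total RNA was used with a strand-specific protocol, and the sources used here do not say whether poly(A) RNA was selected. The labels do not tell whether replicates were separate cultures, and the spread behind each p-value may therefore be technical. GDF5 is a ligand of the bone morphogenetic protein family, and the series title sets the comparison in diabetic kidney disease.

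Histones are the proteins around which DNA is wound: H2A, H2B, H3 and H4 form the core of the nucleosome and H1 binds the linker between cores. Replication-dependent histone genes are switched on in S phase, and their mRNAs mostly end in a conserved stem-loop, bound by the protein SLBP, in place of a poly(A) tail. Replacement variants are mostly made throughout the cell cycle from genes with ordinary polyadenylated mRNAs, and chaperones place them in chromatin outside replication. H2AX, counted here with the replacement variants, is known to have both a stem-loop and a polyadenylated form of its mRNA.

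The stem-loop is shown first because it is the known end of replication-dependent histone mRNAs and because RNA without a poly(A) tail is counted poorly by poly(A)-selected libraries. In GENCODE 29 transcripts, a 16-base window was taken as a stem-loop where it began with GG, ended with CC, paired over 6 bases around a 4-base loop (G with T allowed) and differed in at most 3 letters from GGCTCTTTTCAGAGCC, the form found in more replication-dependent members than any other. It was present in 30 of the 60 replication-dependent members with a transcript there and in 1 of 11 replacement variants, H2AX. Over the 58676 genes of that transcript set it was present in 93. The exact letters occurred in 20 genes, of which 15 were members. The forms below come from the 5 tested replication-dependent members that hold it and from H2AX, with the stem-loop in capitals.
H2AC6: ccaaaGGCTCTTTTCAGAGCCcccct
H2AW: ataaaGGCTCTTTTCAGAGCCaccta
H2BC5: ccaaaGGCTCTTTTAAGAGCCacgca
H2BC4: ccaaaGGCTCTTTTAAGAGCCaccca
H4C9: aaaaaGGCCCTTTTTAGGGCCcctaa
H2AX: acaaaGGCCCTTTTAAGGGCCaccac
On GRCh38 these stem-loops lie at chr6:26124669-26124684 (plus strand) in H2AC6, chr1:228457369-228457384 (minus) in H2AW, chr6:26158587-26158602 (plus) in H2BC5, chr6:26123472-26123487 (minus) in H2BC4, chr6:27139654-27139669 (plus) in H4C9 and chr11:119094898-119094913 (minus) in H2AX. In 21 of the 30 replication-dependent members with a stem-loop, an annotated transcript ran at least 100 bases past it. These 21 had a median level of 0.321 RPKM, against 0.105 RPKM in the other 9. RPKM is reads scaled to gene length and library depth, here as the mean of 6 libraries. The levels overlapped widely, from 0.00634 to 3.38 RPKM (H2AC6) in the 21 and from 0.0208 to 2.77 RPKM (H2BC5) in the other 9. Only transcripts that hold the stem-loop were measured, and the annotated gene H2BC5 runs on to chr6:26171349. The remaining members, H2BC12 among them, had no match in their annotated transcripts, which says only that these letters are not in those models.

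Replacement variants carried most of the histone signal. The 11 replacement variants summed to 271, 257 and 252 RPKM in GDF5 replicates 1 to 3 and to 285, 295 and 293 RPKM in control replicates 1 to 3. The 62 replication-dependent genes summed to 55.0, 49.5 and 52.6 RPKM in GDF5 replicates 1 to 3 and to 48.6, 48.2 and 47.6 RPKM in control replicates 1 to 3. In level, the order began with H3-3A at 67.9 RPKM, H2AZ1 at 58.6, H3-3B at 42.7, H2AX at 32.5, H2AZ2 at 29.4 and H2BC12 at 23.3 RPKM, all as means over 6 libraries. H2AX and H2AZ2 overlapped in their libraries. The other 61 replication-dependent genes were each under 5 RPKM.

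**Figure D1:**
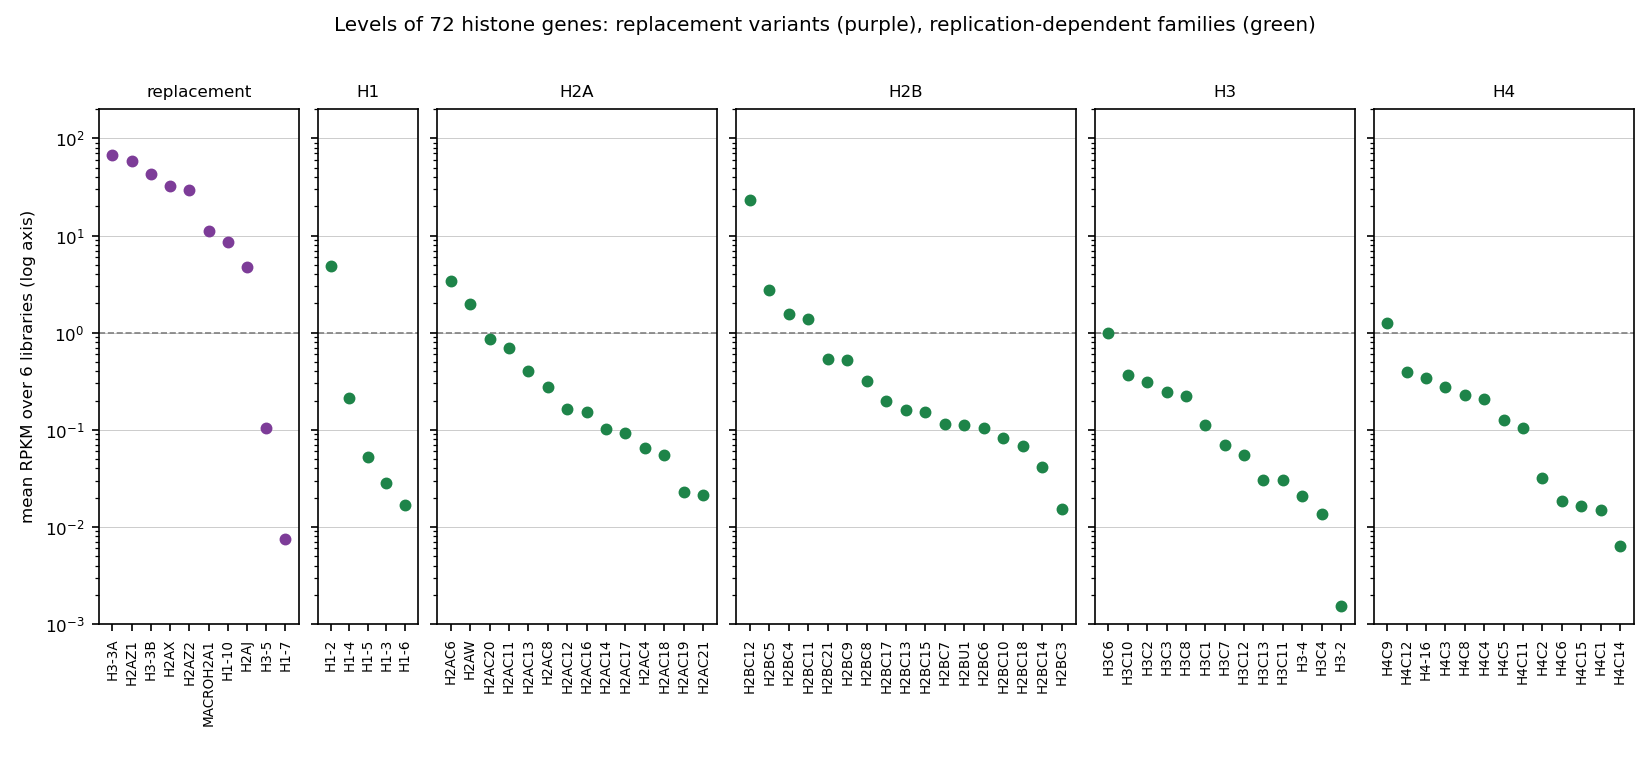
Mean RPKM over the 6 libraries (log axis) of 72 histone genes, replacement variants in purple and replication-dependent families in green, with a dashed line at 1 RPKM, the level from which genes were tested. Replacement variants fill the top of the scale, H2BC12 at 23.3 RPKM stands above every other replication-dependent gene, and 24 of the 62 replication-dependent genes lie under 0.1 RPKM.

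A gene was tested where its mean over 6 libraries was at least 1 RPKM, which held for 17 members: 9 of 11 replacement variants and 8 of 62 replication-dependent genes. With limma on log2(RPKM + 1) and a Benjamini-Hochberg adjusted p under 0.05 over 12476 genes, 2 members were higher in GDF5 cells, H2BC12 and H2BC11, and 3 were lower, H2AZ1, H3-3A and H1-10. Over all genes tested 25.0% were called, 7.48% higher and 17.5% lower, so 5 of 17 members called lies near the background. With median-of-ratios scaling the same shares were 12.2% higher and 10.8% lower. By class, 2 of 8 replication-dependent genes were higher and none lower, and 3 of 9 replacement variants were lower and none higher. The median log2 change was -0.02 in the replication-dependent genes tested, -0.11 in the replacement variants tested and -0.05 in all genes tested. The difference between the classes was not tested. Without GDF5 replicate 1 there were 1 member higher and 6 lower, and without any other library 0 to 1 higher and 1 to 2 lower. The authors' deposited table called 2 members, H2BC12 and H2AZ1, against 8.73% of all its genes.

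H2AZ1 was the member with the clearest difference. It encodes H2A.Z, a variant of H2A found around transcription start sites, and lies at chr4:99948086-99950388 on the minus strand. It had 52.0, 52.6 and 50.4 RPKM in GDF5 replicates 1 to 3 and 63.1, 66.8 and 66.6 RPKM in control replicates 1 to 3. All GDF5 libraries lay below all control libraries, with a gap wider than the range in either group. The means were 51.7 ± 1.10 and 65.5 ± 2.10 RPKM (SD, n = 3 each), giving a log2 change of -0.34 ± 0.03 (SE; limma adjusted p = 0.000754). It was called in all 14 alternative settings, with log2 changes between -0.36 and -0.28, and in the authors' deposited table (log2 fold change -0.28, adjusted p = 9.2e-10). The paralog H2AZ2, which encodes the other H2A.Z protein, had 28.4, 29.8 and 28.6 RPKM in GDF5 replicates 1 to 3 and 29.6, 29.9 and 29.7 RPKM in control replicates 1 to 3. These groups overlapped, the log2 change was -0.04 with a 95% interval of -0.11 to 0.03, and its sign was positive with median-of-ratios scaling (0.02). The ratio of H2AZ1 to H2AZ2 was 1.83, 1.76 and 1.76 in GDF5 libraries and 2.13, 2.23 and 2.24 in control libraries, without overlap and independent of library scaling.

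Among the H3.3 genes, which encode the same replacement H3 protein, H3-3A was called lower and H3-3B was not. H3-3A (chr1:226061851-226072001, plus strand) had 66.6, 65.1 and 64.0 RPKM in GDF5 replicates 1 to 3 and 70.7, 71.2 and 69.9 RPKM in control replicates 1 to 3. The groups did not overlap, and the log2 change was -0.11 ± 0.03 (SE; limma adjusted p = 0.0229). The call depended on scaling: with median-of-ratios scaling it was -0.06 (limma adjusted p = 0.197), and it ended too without GDF5 replicate 2 (0.0832) or 3 (0.0935) and without control replicate 1 (0.0710) or 2 (0.0668). H3-3B (chr17:75776434-75785893, minus strand) had 42.5, 41.4 and 41.3 RPKM in GDF5 replicates 1 to 3 and 43.2, 44.6 and 43.3 RPKM in control replicates 1 to 3. All GDF5 libraries were again below all control libraries, by a log2 change of -0.07 (limma adjusted p = 0.122). H3-5, a further H3.3-like gene, was at 0.105 RPKM and was not tested.

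Among replacement linker histones, H1-10 (H1.X) was called lower. H1-10 (chr3:129314771-129316277, minus strand) had 8.36, 6.45 and 7.34 RPKM in GDF5 replicates 1 to 3 and 9.17, 9.37 and 10.3 RPKM in control replicates 1 to 3. Every GDF5 library was below every control library, although the GDF5 libraries were spread more widely. The log2 change was -0.34 ± 0.08 (SE; limma adjusted p = 0.0244), and under median-of-ratios scaling it was -0.29 (adjusted p = 0.0418). The call ended without any 1 library other than GDF5 replicate 1 (limma adjusted p = 0.0505 to 0.0751), and the authors' deposited table gave an adjusted p of 0.0509. An antisense transcript overlaps 22.9% of its exonic bases and was itself at 0.942 RPKM, and the sources used here do not say whether counting used strand. The germline gene H1-7 had 3 reads in all.

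H2AX, the H2A variant phosphorylated at DNA breaks, was split by a single library. It had 38.0, 27.6 and 26.5 RPKM in GDF5 replicates 1 to 3 and 33.0, 34.8 and 34.9 RPKM in control replicates 1 to 3. GDF5 replicate 1 was above all control libraries and the other GDF5 libraries were below all of them. The log2 change was -0.17 with a 95% interval of -0.46 to 0.12 (limma adjusted p = 0.343), and without GDF5 replicate 1 it was -0.33 (limma adjusted p = 0.00227). MACROH2A1, whose protein carries a macro domain beside its histone fold, had 10.7, 10.9 and 10.6 RPKM in GDF5 libraries and 11.2, 11.1 and 11.5 RPKM in control libraries (log2 change -0.06, limma adjusted p = 0.168). H2AJ, an H2A variant known from senescent cells, had 4.74, 4.32 and 4.05 RPKM in GDF5 libraries and 4.74, 4.88 and 5.43 RPKM in control libraries. Its log2 change was -0.16 (limma adjusted p = 0.0998), and it was called lower without GDF5 replicate 1 (limma adjusted p = 0.0494).

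**Figure D2:**
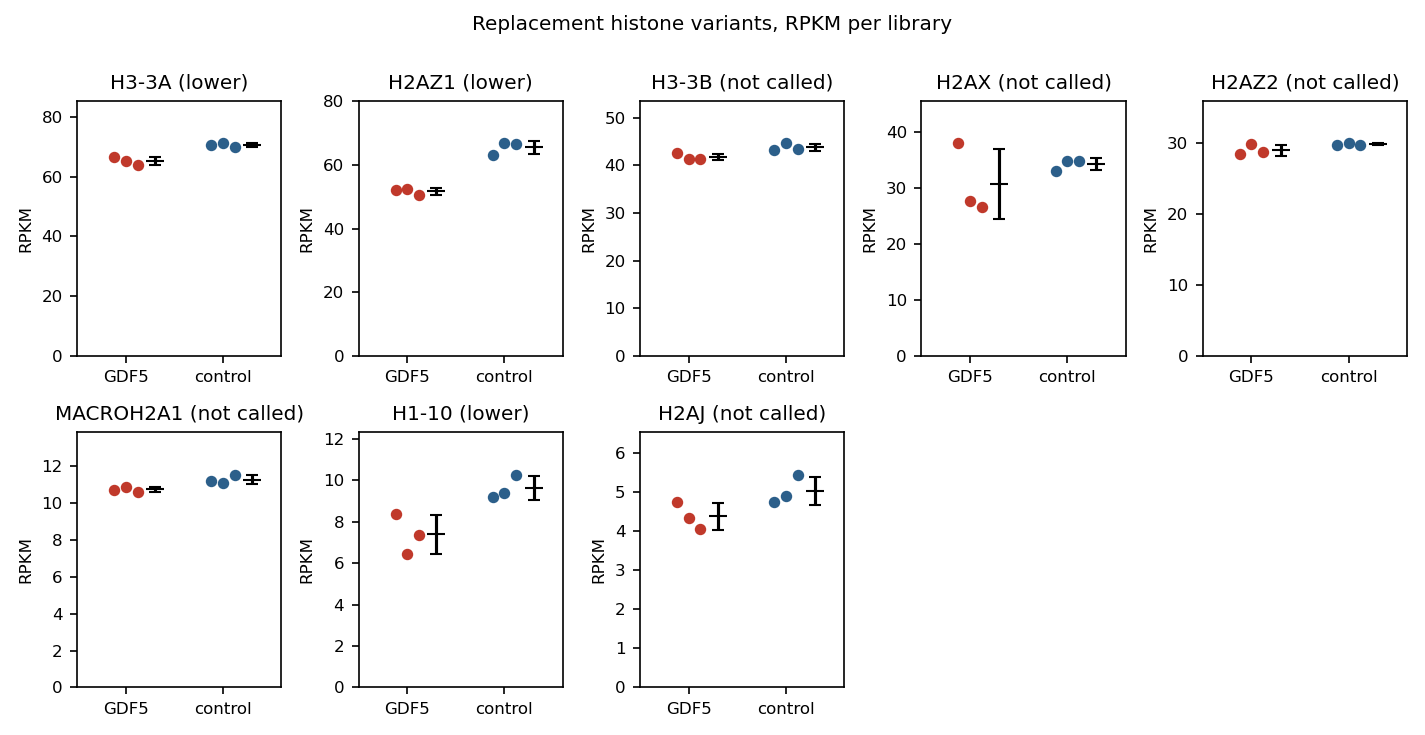
RPKM in each library of 8 replacement variants tested, GDF5 libraries in red and control libraries in blue, in the order of replicates 1 to 3, with the mean and SD of each group as a bar beside the points and the call in the title. H2AZ1 shows the widest gap, 51.7 against 65.5 RPKM, and in H2AX GDF5 replicate 1 lies at 38.0 RPKM, apart from 27.6 and 26.5 RPKM.

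In all 9 replacement variants tested the log2 change was negative, and in 7 of them all GDF5 libraries lay below all control libraries. The log2 change was also negative in 8040 of all 12476 genes tested, whose median was -0.05. Among all genes tested 43.9% had groups that did not overlap, 30.4% with GDF5 libraries all below and 13.5% all above. With median-of-ratios scaling, which divided GDF5 libraries by 0.979 to 0.984 and control libraries by 1.02 to 1.03, 8 of 9 were negative and H2AZ2 was positive, and 23.0% of all genes were called. Under that scaling the median log2 change of the replacement variants was -0.06, and H2AZ1 and H1-10 were called.

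Among replication-dependent genes, both calls were H2B genes of the main cluster on chromosome 6. H2BC12 (chr6:27146418-27146798, minus strand) encodes the H2B protein type 1-K. It had 27.3, 23.1 and 27.1 RPKM in GDF5 replicates 1 to 3 and 22.2, 18.4 and 21.4 RPKM in control replicates 1 to 3. All GDF5 libraries lay above all control libraries, and the lowest GDF5 value was close to the highest control value. The means were 25.8 ± 2.36 and 20.7 ± 2.04 RPKM (SD, n = 3 each), from 757, 502 and 728 reads in GDF5 libraries and 528, 410 and 594 reads in control libraries. The log2 change was 0.31 ± 0.09 (SE; limma adjusted p = 0.0384), and the authors' deposited table called it higher too (log2 fold change 0.39, adjusted p = 0.0096). It was not called without GDF5 replicate 1 (limma adjusted p = 0.0864) or 3 (0.114), without control replicate 2 (0.0844) or 3 (0.0702), and without a filter on low genes (0.144).

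H2BC11 (chr6:27125897-27132750, minus strand), which encodes H2B type 1-J, was a low gene just over the tested level. It had 1.38, 1.57 and 1.92 RPKM in GDF5 replicates 1 to 3 and 1.08, 1.21 and 1.08 RPKM in control replicates 1 to 3. The groups did not overlap, at 81, 72 and 109 reads in GDF5 libraries and 54, 57 and 63 reads in control libraries. The log2 change was 0.30 ± 0.09 (SE; limma adjusted p = 0.0401). Across 14 alternatives its adjusted p lay between 0.0237 and 0.142 and the call was lost in 10, among them leaving out any 1 library other than GDF5 replicate 1 (0.0641 to 0.110). The authors' deposited table gave an adjusted p of 0.238.

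The promoters of the called H2B genes and of H2AZ1 are shown because these genes were called in opposite directions. The windows, from RefSeq on GRCh38.p14, run from 250 bases before the start to 50 after it and lie at chr6:27146809-27147108 (minus), chr6:27132746-27133045 (minus) and chr4:99950226-99950525 (minus). Capitals mark the CCAAT box, the TATA box motif TATAAA and the octamer ATTTGCAT, each on either strand. The octamer is the element known from H2B promoters that POU2F1 (OCT1) binds.
H2BC12: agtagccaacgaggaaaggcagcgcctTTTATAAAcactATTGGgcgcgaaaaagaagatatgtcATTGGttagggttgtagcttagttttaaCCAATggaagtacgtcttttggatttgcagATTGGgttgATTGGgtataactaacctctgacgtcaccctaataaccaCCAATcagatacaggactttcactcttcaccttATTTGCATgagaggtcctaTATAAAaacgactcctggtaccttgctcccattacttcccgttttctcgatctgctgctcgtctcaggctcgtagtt
H2BC11: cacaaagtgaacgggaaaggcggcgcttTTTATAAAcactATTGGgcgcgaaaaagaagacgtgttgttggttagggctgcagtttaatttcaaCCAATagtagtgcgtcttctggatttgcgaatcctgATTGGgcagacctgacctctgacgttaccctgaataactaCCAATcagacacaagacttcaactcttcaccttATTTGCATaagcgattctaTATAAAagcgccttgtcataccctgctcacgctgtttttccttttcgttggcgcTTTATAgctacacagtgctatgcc
H2AZ1: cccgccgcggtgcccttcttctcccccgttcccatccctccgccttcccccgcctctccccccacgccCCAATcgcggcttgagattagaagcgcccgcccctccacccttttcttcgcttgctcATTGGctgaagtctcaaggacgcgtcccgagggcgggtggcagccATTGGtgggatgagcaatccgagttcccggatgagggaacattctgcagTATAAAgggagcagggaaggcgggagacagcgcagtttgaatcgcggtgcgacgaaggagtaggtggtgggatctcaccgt
H2BC12 had 2 windows listed, of which only the first is shown. That window held 6 matches to the CCAAT box, the octamer 46 bases before the start and a TATA box 27 bases before it. H2BC11 held 4 matches to the CCAAT box, with the octamer at 47 bases and a TATA box at 28 bases. H2AZ1 held 3 matches to the CCAAT box, a TATA box at 31 bases and no octamer. Both H2B promoters also held TATA matches farther from the start. The octamer was present in 13 of 16 replication-dependent H2B genes with a window, 9 of 12 H2A, 1 of 10 H3, 0 of 5 H1 and 0 of 10 H4 genes, and in 2.19% of 27305 genes. The CCAAT box was present in all 5 H1, 12 H2A, 16 H2B and 10 H3 replication-dependent genes with a window, in 2 of 10 H4 genes, in 8 of 9 replacement variants and in 39.7% of all genes. The TATA box was present in 36 of 53 replication-dependent genes, 4 of 9 replacement variants and 13.99% of all genes. These are matches of letters in 62 members with a window, not measured binding.

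H2BC12 faces H2AC12 head to head, with 331 bases between their starts, yet the levels differed widely: H2AC12 was at 0.164 RPKM and H2BC12 at 23.3 RPKM. In all, 10 such facing pairs lay within 500 bases. The next most unequal was H2AW, at 1.95 RPKM, beside H2BU1, at 0.112 RPKM. H2AC6, at 3.38 RPKM, and H2BC4, at 1.57 RPKM, were closer to each other, as were H2BC11, at 1.37 RPKM, and H2AC11, at 0.703 RPKM.

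The other 6 replication-dependent genes tested were not called. H1-2, the most abundant linker histone gene of the cluster, had 4.27, 4.46 and 4.61 RPKM in GDF5 libraries and 4.82, 5.64 and 5.03 RPKM in control libraries. Its groups did not overlap, with a log2 change of -0.18 (limma adjusted p = 0.0615). H2AW, from the small cluster on chromosome 1 (chr1:228456979-228457873, minus strand), had 2.29, 1.30 and 1.01 RPKM in GDF5 replicates 1 to 3 and 2.42, 2.20 and 2.49 RPKM in control replicates 1 to 3. GDF5 replicate 1 lay within the range of the control libraries and the other GDF5 libraries lay below it. The log2 change of H2AW was -0.44 (limma adjusted p = 0.0938), and -0.65 without GDF5 replicate 1 (limma adjusted p = 0.00337). H2BC5, an H2B gene, had 2.79, 2.28 and 2.41 RPKM in GDF5 libraries and 2.70, 3.00 and 3.46 RPKM in control libraries (log2 change -0.22, limma adjusted p = 0.103).

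H2AC6, an H2A gene, had 3.28, 3.78 and 3.20 RPKM in GDF5 libraries and 3.35, 3.56 and 3.07 RPKM in control libraries, with a log2 change of 0.03 and a 95% interval of -0.13 to 0.19. H2BC4 had 1.56, 1.26 and 1.88 RPKM in GDF5 libraries and 1.62, 1.38 and 1.71 RPKM in control libraries, with an interval of -0.24 to 0.23. H4C9, 1 of the many genes for the same H4 protein, had 1.03, 1.37 and 1.27 RPKM in GDF5 libraries and 1.26, 1.42 and 1.17 RPKM in control libraries, with an interval of -0.23 to 0.15. In each of these 3 genes the groups overlapped, and the sign of the change turned in some alternatives.

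**Figure D3:**
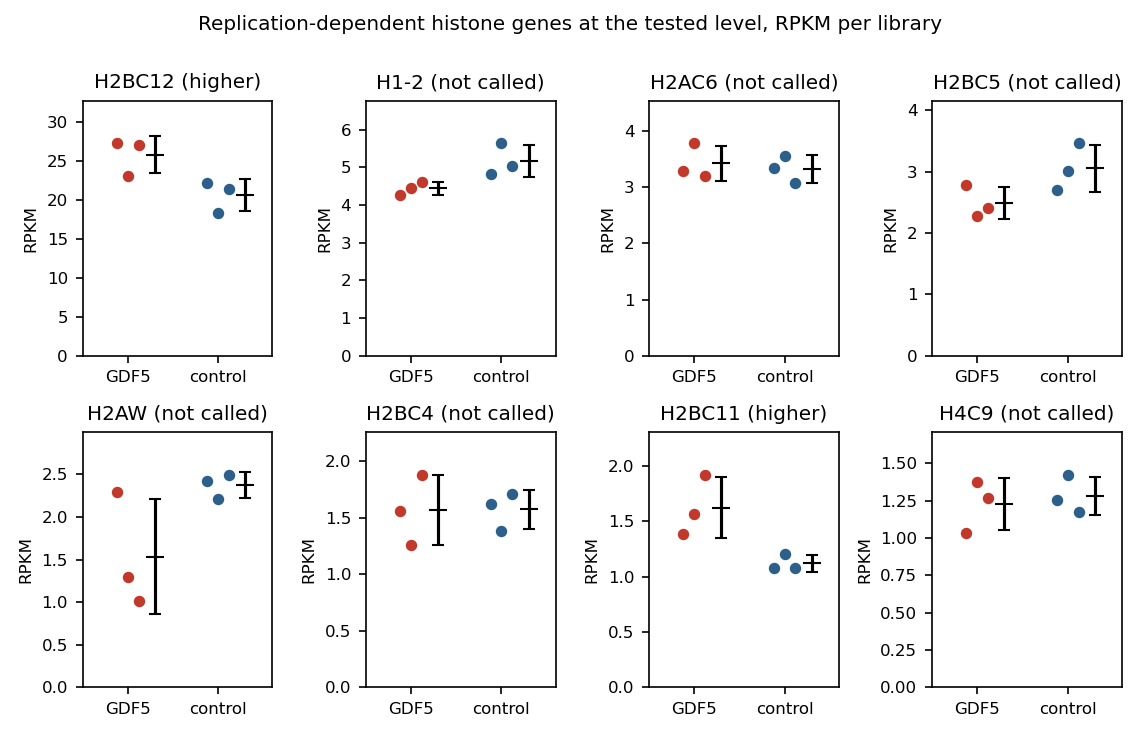
RPKM in each library of the 8 replication-dependent genes tested, GDF5 libraries in red and control libraries in blue, in the order of replicates 1 to 3, with the mean and SD of each group as a bar beside the points and the call in the title. H2BC12 and H2BC11 lie higher in all GDF5 libraries, and in H2AW GDF5 replicate 1, at 2.29 RPKM, lies apart from 1.30 and 1.01 RPKM.

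The 54 replication-dependent genes below the tested level mostly held few reads. Together they had 800, 674 and 728 reads in GDF5 replicates 1 to 3 and 621, 655 and 689 reads in control replicates 1 to 3. Scaled to length and depth they summed to 11.1, 10.4 and 9.19 RPKM in GDF5 replicates 1 to 3 and 9.15, 11.4 and 8.18 RPKM in control replicates 1 to 3, and the groups overlapped. H3C6, just under the tested level at 0.999 RPKM, was the highest H3 gene, with 0.919, 1.04 and 0.908 RPKM in GDF5 libraries and 0.988, 1.04 and 1.10 RPKM in control libraries. The next H3 genes were H3C10 at 0.370 RPKM and H3C2 at 0.309 RPKM, and the next H4 genes were H4C12 at 0.392 RPKM and H4-16 at 0.344 RPKM. H4C12 had 1.15, 0.0589 and 0.429 RPKM in GDF5 replicates 1 to 3 and 0.162, 0.229 and 0.323 RPKM in control replicates 1 to 3, so that a single library set its mean.

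Of the next genes by family, H2AC20 was at 0.865 RPKM among H2A genes, and H1-4, a linker histone gene, was at 0.213 RPKM. In H1-5 no read was listed in any GDF5 library, against 4, 6 and 2 reads in control replicates 1 to 3. In H2AC18 no read was listed in any GDF5 library, against 2, 3 and 4 reads in control replicates 1 to 3. H2AC18 was called lower when no filter was used, where 5.30% of all genes were called, 1.73% higher and 3.58% lower. No fold is given for either gene, since mates may have been counted singly and the fragments behind these reads are then fewer. Other groups below the tested level also did not overlap, in both directions. H2BC9 had 0.702, 0.730 and 0.510 RPKM in GDF5 libraries and 0.374, 0.323 and 0.477 RPKM in control libraries. H2BC7 was higher too, at 12, 8 and 14 reads in GDF5 libraries and 0, 6 and 2 in control libraries. H4-16 was lower, and the authors called none of these. Among all genes tested 43.9% had groups that did not overlap. In all, 32 of 73 members had a 0 in some library and 22 had 12 reads or fewer in all.

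Sequence shared between members limits several of the low genes. Over 71 members with a GENCODE 29 transcript, 9 shared over 50% of their 50-base windows with another member. H2AC18 shared 100% of them, mostly with H2AC19, and H4C12 100%, mostly with H4C11, so that reads from these genes may have been split or left out. H2AC17 shared 86.3%, mostly with H3C12, whose annotated span overlaps its own on the same strand, so this share need not mark a copy. Among the 17 tested members the highest share was 22.6%, in H2BC12, and 8 of them shared none.

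The H2B and H1 sums of RPKM did not overlap between groups, and each was mostly a single gene, H2BC12 in H2B and H1-2 in H1. The 17 H2B genes summed to 35.9, 30.9 and 36.1 RPKM in GDF5 libraries and 29.5, 26.3 and 29.6 RPKM in control libraries, without overlap. Without H2BC12 the other 16 summed to 8.60, 7.79 and 9.04 RPKM in GDF5 libraries and 7.23, 7.93 and 8.22 RPKM in control libraries, and the groups overlapped. The 5 H1 genes summed to 4.36, 4.69 and 4.81 RPKM in GDF5 libraries and 5.24, 6.43 and 5.17 RPKM in control libraries, again without overlap and in the other direction, and H1-2, at 4.45 RPKM in GDF5 libraries and 5.16 RPKM in control libraries, was not called. The H2A, H3 and H4 sums overlapped between groups, with means in GDF5 libraries of 7.94 RPKM for H2A, 2.35 RPKM for H3 and 3.16 RPKM for H4, against 8.57, 2.60 and 2.88 RPKM for the same families in control libraries.

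In RPKM, the share of replication-dependent RNA was higher in GDF5 libraries, with H2BC12 a large part of it. The replication-dependent sum was 20.3%, 19.2% and 20.8% of the replacement sum in GDF5 libraries and 17.1%, 16.3% and 16.3% in control libraries, without overlap. H2BC12 alone made up 49.3 ± 2.43% of the replication-dependent sum in GDF5 libraries and 42.9 ± 4.18% in control libraries (SD, n = 3 each). It was a smaller part in reads, which are not scaled to length. In GDF5 replicates 1 to 3 H2BC12 held 757, 502 and 728 of 2519, 1930 and 2375 replication-dependent reads. In control replicates 1 to 3 H2BC12 held 528, 410 and 594 of 2000, 1918 and 2298 such reads. Without it, the other 61 genes summed to 27.7, 26.4 and 25.5 RPKM in GDF5 libraries and 26.4, 29.8 and 26.2 RPKM in control libraries, and the groups overlapped. As percent of the replacement sum these were 10.2%, 10.3% and 10.1% in GDF5 libraries and 9.28%, 10.1% and 8.95% in control libraries, which overlapped narrowly, at the lowest GDF5 and the highest control value. The replacement sum itself was lower in GDF5 libraries, at 0.895 times the control mean, and the replication-dependent sum was at 1.09 times its own control mean. These sums are descriptions with no test.

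**Figure D4:**
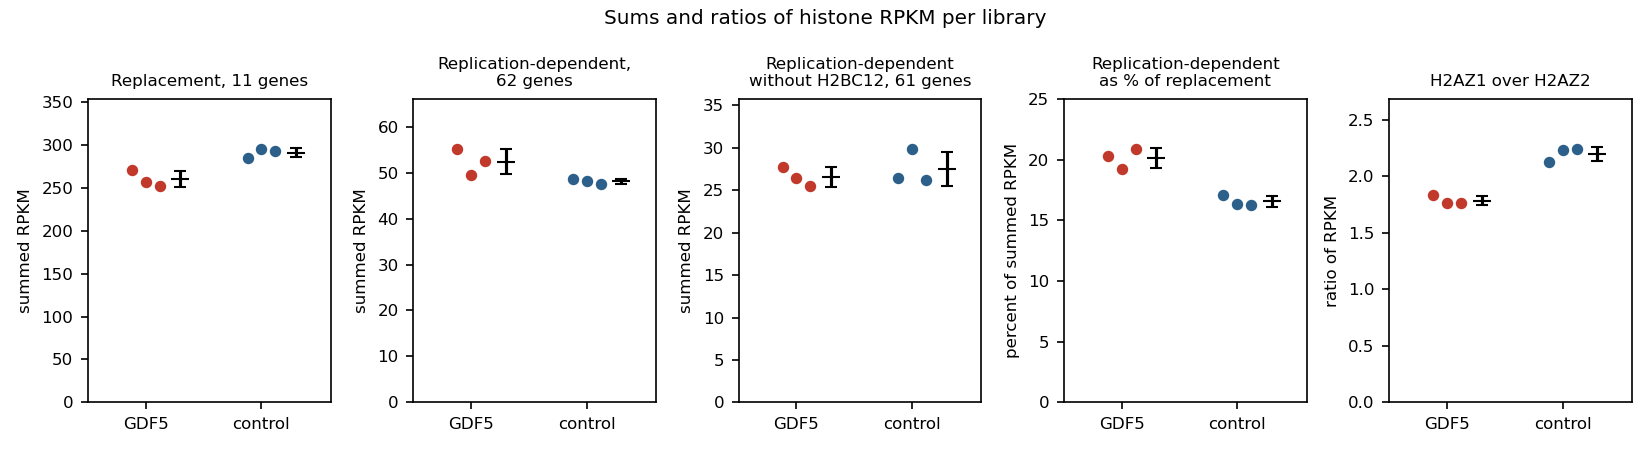
Summed RPKM of replacement variants, of replication-dependent genes with and without H2BC12, the replication-dependent sum as percent of the replacement sum, and the ratio of H2AZ1 to H2AZ2, for GDF5 libraries (red) and control libraries (blue) in the order of replicates 1 to 3, with mean and SD. The percent is 19.2 to 20.8 in GDF5 libraries and 16.3 to 17.1 in control libraries, and the sum without H2BC12 overlaps between the groups.

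**Figure D5:**
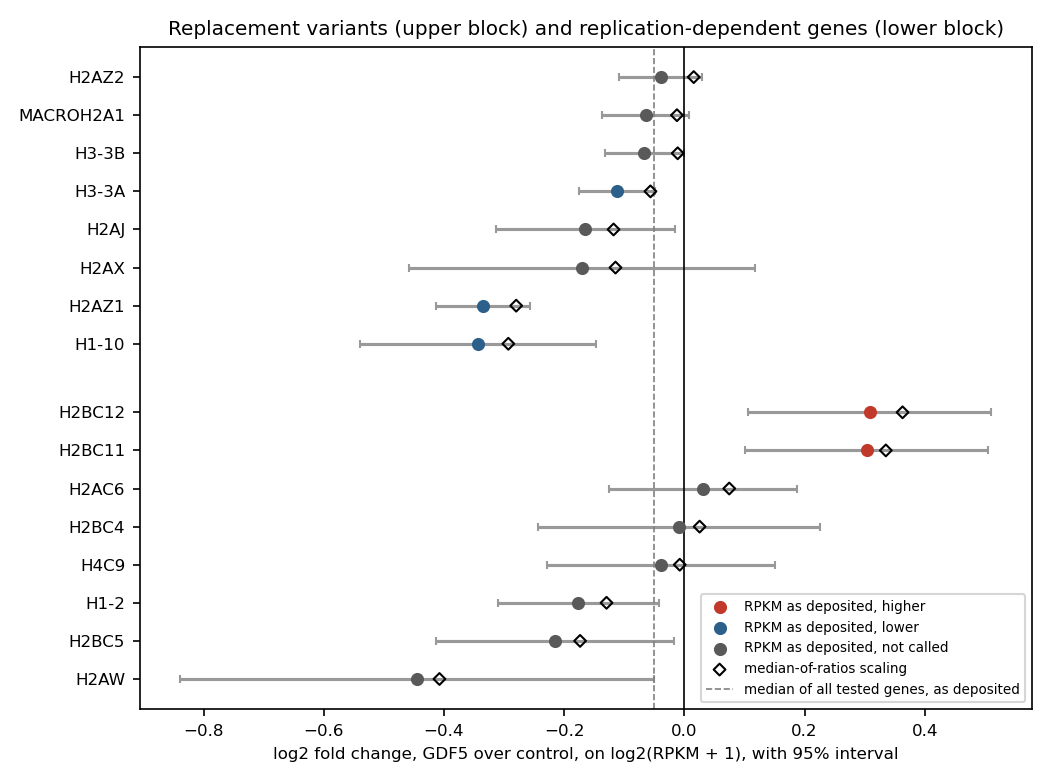
Log2 fold change of GDF5 over control with its 95% interval for 16 tested members (filled circles, coloured by call), the same under median-of-ratios scaling (open diamonds), and the median of all tested genes (dashed line, -0.05). H2AZ1 and H1-10 lie lowest among the replacement variants at -0.34, and H2BC12 (0.31) and H2BC11 (0.30) lie highest among the replication-dependent genes.

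Genes that make and handle histone mRNA and protein are given beside all genes tested, of which 7.48% were higher and 17.5% lower. Most genes on these lists were not called, which also held for most of all genes tested. Of 25 genes of histone pre-mRNA 3′ end processing, 2 rose and 3 fell. SLBP, which binds the stem-loop, had 77.9, 81.0 and 75.8 RPKM in GDF5 libraries and 84.7, 85.6 and 84.6 RPKM in control libraries. Its groups did not overlap, and it fell by 0.12 on the log2 scale (limma adjusted p = 0.0313), a call that ended with median-of-ratios scaling (0.216) and without any 1 library other than GDF5 replicate 2 (0.0527 to 0.111). CPSF4 (-0.22) and CPSF1 (-0.24), subunits of the cleavage complex that acts on polyadenylated mRNAs, fell, and FIP1L1 (0.22) and CSTF3 (0.15), of the same machinery, rose. The CPSF1 call ended with median-of-ratios scaling (0.0561), without GDF5 replicate 2 (0.0864) or 3 (0.0846) and without control replicate 1 (0.0679) or 3 (0.0572). The CSTF3 call ended without GDF5 replicate 2 (0.102) or 3 (0.107) and without control replicate 1 (0.0934) or 2 (0.0730). NPAT, the activator of histone genes in S phase, had 5.72, 5.81 and 6.20 RPKM in GDF5 libraries and 5.79, 5.79 and 6.003 RPKM in control libraries (log2 change 0.01, limma adjusted p = 0.883). NPAT was also on the list of 16 histone transcription regulators, where TRIM24 (-0.18) and CNBP (-0.10) fell and none rose, and CNBP was not called with median-of-ratios scaling (0.324) or without any 1 library other than GDF5 replicate 1 (0.0866 to 0.160).

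Of 12 genes of histone mRNA decay and SLBP turnover, 1 fell, LSM4 (-0.30), a subunit of the ring that binds the end of mRNAs marked for decay, and none rose. Of 30 genes for histone chaperones and exchange factors, 28 were tested, 2 rose and 2 fell. NCL, nucleolin, had 111 to 112 RPKM in GDF5 libraries and 96.5 to 102 RPKM in control libraries (log2 change 0.17), and SET, an inhibitor of histone acetylation, rose by 0.12, a call that ended without GDF5 replicate 2 (0.147) or 3 (0.134) and without control replicate 1 (0.110) or 3 (0.105). MCM2, the helicase subunit that carries H3 and H4 at the fork, had 42.5, 40.0 and 40.2 RPKM in GDF5 libraries and 46.9, 47.4 and 51.7 RPKM in control libraries (log2 change -0.24, limma adjusted p = 0.00939). RBBP4, a histone-binding subunit of chromatin assembly factor 1, fell by 0.20 on the log2 scale. The centromeric H3 variant CENPA had 17.8, 17.02 and 17.2 RPKM in GDF5 libraries and 17.9, 16.9 and 17.6 RPKM in control libraries, which overlapped (limma adjusted p = 0.828). MACROH2A2, the relative of MACROH2A1, was at 4.48 RPKM in GDF5 cells and 4.51 RPKM in control cells.

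Of 24 S phase genes 13 fell and 1 rose, where over all genes tested 17.5% were lower and 7.48% higher. SLBP and MCM2, given above with other lists, are also on this list and among the 13. PCNA fell by 0.15, RRM2 by 0.15 and MCM7 by 0.19 on the log2 scale. With median-of-ratios scaling 5 S phase genes were lower and 2 higher. Without 1 library the S phase genes called lower numbered 11, 6 and 5 for GDF5 replicates 1 to 3 and 6, 8 and 7 for control replicates 1 to 3. Of 20 G2 and mitosis genes 15 rose and none fell, among them PTTG1 (0.46), AURKA (0.32), MKI67 (0.29) and CCNA2 (0.26). This count was 14, 9 and 9 without each GDF5 replicate in turn and 9, 12 and 10 without each control replicate in turn. The part of cell cycle position in the histone values was not tested.

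Other RNAs without a poly(A) tail were few in the table: 10 of 22 listed genes were present and 2 were tested. RN7SL1, of the signal recognition particle, had 17.01, 24.2 and 12.7 RPKM in GDF5 libraries and 20.7, 41.3 and 13.6 RPKM in control libraries, with replicate 2 highest in each group. Of the 8 replication-dependent genes tested, H2AC6 and H4C9 were also highest in replicate 2 of each group, H2BC12 and H2BC4 were lowest in it, and the other 4 were neither. The part of RNA selection in the replication-dependent levels was not tested.

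Depth was 43885799 to 56041279 assigned reads in GDF5 libraries and 45104164 to 56020249 in control libraries. Of 12 proximal tubule markers 7 were under 1 RPKM in the mean, among them LRP2, CUBN and AQP1, while PAX8 and CDH6 were present, and 3 fell, PAX8 among them. The list summed to 180 to 184 RPKM in GDF5 libraries and 196 to 201 RPKM in control libraries. All 7 epithelial markers were tested, and 1 rose and 4 fell. Their sums were 498 to 527 RPKM in GDF5 libraries and 604 to 635 RPKM in control libraries. Beside both marker lists, 17.5% of all genes tested were lower and 7.48% higher. The part of these markers in the histone values was not tested. Of 6 fibroblast and pericyte markers 4 were under 1 RPKM, including PDGFRA and PDGFRB, with LUM at 69.9 RPKM in GDF5 cells and 73.7 RPKM in control cells and none called. The 4 endothelial and 4 leukocyte markers in the table summed to at most 0.108 and 0.461 RPKM in any library. Fewer cells of a type and less RNA per cell cannot be told apart in such bulk libraries.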

How the data were processed

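RNA from 6 HK-2 libraries (3 GDF5, 3 control) was compared. HISAT2 and DESeq2 were run by the authors on GRCh38, per the submitters' processing notes. Which program counted reads, and on which annotation, is not given in the sources. The values showed that the authors deposited RPKM per library. The deposited group means are a signal, reads divided by a size factor and averaged. Each gene also carries the authors' log2 fold change, p-value and adjusted p-value, per the file headers.

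Whole reads were recovered from the RPKM steps: 100% of the 64436 values below 20 reads were whole within 0.1, and 63.6% were even, so mates may often have been counted singly. Genes with a mean of at least 1 RPKM were tested with limma 3.58.1 in R 4.3.3 on log2(RPKM + 1), with a variance trend, no block, two-sided, with Benjamini-Hochberg adjustment; this scale understates changes of low genes. Intervals are at 95%. The test was also tried on simulated reads, drawn around the mean reads of the genes tested. The outcome of that trial is not given here.

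The members and lists were chosen with earlier results of these data known. The symbol rule also matched 13 pseudogenes and 3 divergent or antisense transcripts, which were left out. MACROH2A1 was kept as the newer name of H2AFY, and H1-10, H1-7 and H2AJ were placed with the replacement variants. These H1 and H2A genes stand also on a list of 13 further histone genes, of which 6 were in the table, 5 were tested and 1, H1-10, was lower. Members were named by rule where they were among the 3 highest of a family or of the replacement variants, were called, or changed by at least 0.5 on the log2 scale when tested; each partner list gives up to 4 called genes of smallest adjusted p, with SLBP, NPAT and CENPA. Other genes named were chosen after their values were seen. Results of some genes are not reported here. Coordinates are from GENCODE 29, which held 71 of 73 members. Alternatives were another pseudocount, filters, scaling, threshold, a replicate block, no variance trend, limma-voom on recovered reads with TMM scaling, and leaving out each library.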

Additional observations from a re-analysis of the deposited data

How the results depend on the processing

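Among single genes under 14 alternatives, 443 values kept their call and direction where called, 85 lost the call and 4 gained it. H2AZ1 kept its call in all 14. Without a filter 0 members were higher, 1 replication-dependent gene was lower, all genes gave 590 higher and 1222 lower, partner genes 2 and 5 against 4 and 8, S phase genes 6 lower and mitotic genes 8 higher. With a filter at 0.1 RPKM 0 members and 2 partner genes were higher and 8 S phase genes lower. Median-of-ratios scaling gave 1524 genes higher and 1343 lower, partner genes 8 and 5, S phase genes 2 and 5, and a replacement median of -0.056. With limma-voom 1 member, 1840 genes, 11 partner and 2 S phase genes were higher, 6 S phase genes were lower, and the medians were 0.011 (replication-dependent) and -0.058 (replacement). Without a variance trend 1 member was higher and 8 S phase genes lower. At a threshold of 0.01 there were 0 members higher and 1 lower, 413 and 872 of all genes, 1 and 4 partner genes, 0 and 3 S phase genes and 7 mitotic genes higher. Only fewer genes tested or a stricter limit follow from construction; otherwise the cause was not tested.

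Leaving out 1 library gave 0 to 1 members higher and 1 to 6 lower, 0 to 1 replication-dependent genes higher and 0 to 1 lower, 1 to 5 replacement variants lower, 538 to 940 genes higher and 1222 to 2159 lower, 2 to 4 partner genes higher and 5 to 9 lower, 0 to 1 S phase genes higher and 5 to 11 lower, 9 to 14 mitotic genes higher, and medians of -0.075 to 0.0063 (replication-dependent) and -0.14 to -0.099 (replacement). The 6 lower calls arose without GDF5 replicate 1. Same-numbered libraries did not deviate together (correlations of -0.04, 0.06 and -0.03), and 2 of 6 correlated best with their own number. With the replicate block 1 member was higher and 2 lower, 659 and 1508 of all genes, 0 and 6 S phase genes, and 9 mitotic genes were higher. The 56 members under 1 RPKM were not tested; depth limits most the 22 members with 12 reads or fewer in all.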
